A study of Homo sapiens with 4 samples.

Results

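STC1 and STC2, the stanniocalcin genes of the human genome, were followed in A549 cells, a human lung adenocarcinoma line, that had been treated with embelin (15 µM for 4 h) or left untreated for the same time. Embelin is a benzoquinone with a long aliphatic chain, purified from the fruits of Embelia ribes. All cells had been moved to low-serum medium before the treatment, and the labels give no solvent control. RNA of 2 control and 2 embelin samples was labelled with Cy3, 1 array per sample, and nothing in the labels says that the 2 samples of a group came from separate cultures, so the spread between them may be technical. The 2 genes were chosen by their symbols with their embelin against control values known, STC2 being among the largest increases of the data set, so those values are given as a description with no test. They are 2 of the 30970 genes or transcripts named on the array, and 3 of its 50238 probes measured them, 1 for STC1 and 2 for STC2. Of the 17649 genes that could be measured, STC2 at its brighter probe had the 10th highest log2 difference between embelin and control. STC1 is given no place in that order, because 1 of its 2 control spots was not well above background.

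Stanniocalcins are secreted glycoprotein hormones, first known from fish, where they restrain calcium uptake. Mammalian cells make both as dimers that act locally: they bind and block the metalloproteinase PAPP-A, which frees insulin-like growth factors (IGF) from their binding proteins, and they have been linked to calcium entry and phosphate transport. STC1 and STC2 are both known as hypoxia-inducible genes, and STC2 also as a target of ATF4, the transcription factor of the integrated stress response.

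The oligonucleotides that read STC2 are shown in part because the 2 probes differed in the size of the change. Each is 60 bases long and is assigned by the array's design to the same RefSeq transcript, without a genome position. The windows below are 30 bases of each in the 5′ to 3′ direction, bases 31 to 60 of the brighter and bases 27 to 56 of the dimmer probe, with the letters of the polyadenylation signal AATAAA in capitals.
STC2, brighter probe: gagtgaatgtaaaAATAAAtatcgcttaga
STC2, dimmer probe: catctaaaactaAATAAAtagaaaacacca
The full oligonucleotides shared no run longer than 9 bases, so they read different stretches of the message. AATAAA was found in both, against 4.4% of the 50238 oligonucleotides of the array, and the STC1 oligonucleotide held the variant ATTAAA, found in 2.7%. A match of these letters does not show that the signal is used.

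Because STC1 and STC2 differed together, the 250 bases before the start of STC2 are printed from RefSeq (GRCh38.p14, chr5:173328415-173328664, minus strand, 5′ to 3′). Capitals mark the matches to GCGTG and CCAAT, searched on both strands.
STC2 promoter: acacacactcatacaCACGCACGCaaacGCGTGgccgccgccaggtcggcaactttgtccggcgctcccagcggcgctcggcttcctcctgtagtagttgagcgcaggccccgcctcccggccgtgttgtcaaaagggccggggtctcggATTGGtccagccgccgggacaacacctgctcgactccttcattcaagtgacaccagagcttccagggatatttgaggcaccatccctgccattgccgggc
GCGTG, with ACGTG a core of the sites that hypoxia-inducible factors bind, was matched 3 times, beginning 235, 231 and 222 bases before the start, and the first 2 matches overlap by a base. A match, whatever the number, was present in 32.2% of 35116 promoter windows of this length, and windows with 3 were not counted. Either core was present in 43.2% of windows. The STC2 window had 63.6% G and C, against a median of 58.0%. ACGTG was not matched in STC2 and was present in 18.5% of all windows. In the lists described below, GCGTG was present for 12 of 22 hypoxia-inducible and 13 of 23 ATF4 target genes. For ACGTG these were 16 of 22 and 4 of 23. CCAAT was matched once, on the minus strand, and was present in 32.0% of windows. TGATGNAA, the composite element of ATF4 and C/EBP factors, and TGACGTCA, the cyclic AMP response element, were not matched here and were present in 3.1% and 1.6% of windows. GGGCGG (42.6% of windows) and TATAAA (11%) were not matched either. The promoter table used holds no entry for STC1.

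Markers of the labelled cell line and of other cells were read on each array, while the identity of the cells rests on the labels. All 8 A549 markers (KRT8, KRT18, KRT19, EPCAM, CDH1, ALDH1A1, AKR1B10 and AKR1C1) were well above background on every array and none was called, and their summed log2 signal was 19.65 and 19.71 in the controls and 19.49 and 19.51 with embelin. Of the markers of other cells, PECAM1, CDH5 and VWF (endothelium), DCN, LUM and PDGFRA (fibroblasts) and PTPRC and CD3E (leukocytes) were not well above background on all 4 arrays, while COL1A1, CD14 and CD79A were. PDGFRA and CD3E were well above it on 1 control and both embelin arrays. They were higher with embelin by 1.37 and 1.25 on the log2 scale and not called (adjusted p = 0.310 and 0.290 by limma). CD14 (-0.60) and CD79A (-0.13) were lower and not called. COL1A1, a collagen chain, was at 6.38 and 6.27 in the controls and 7.56 and 7.69 with embelin, a 2.46-fold difference that reached the threshold of the study (at least 2-fold with an unadjusted p under 0.05) and was not called by limma (adjusted p = 0.0546). The summed log2 signal was 6.97 and 8.11 against 8.18 and 7.97 for the 4 fibroblast markers, 6.0 and 5.27 against 5.52 and 5.94 for the endothelial and 10.37 and 10.53 against 10.48 and 10.03 for the leukocyte markers (controls against embelin), and their part in the results was not tested. All arrays lay on 1 slide, the controls at positions 4 and 1 and the embelin samples at positions 2 and 3. Control replicate 2 and embelin replicate 1 had fewer probes well above background (50.3% and 51.2%) than control replicate 1 and embelin replicate 2 (66.7% and 66.4%), so each group held 1 array of each kind.

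STC1 was near the background of the array in untreated cells and clearly above it with embelin. Its normalized log2 signal in untreated cells was 3.93 (replicate 1) and 4.93 (replicate 2). With embelin it was 8.26 (replicate 1) and 8.73 (replicate 2). Both embelin arrays lay above both control arrays. The group means were 4.43 ± 0.71 and 8.49 ± 0.33 (SD, n = 2 each), a log2 difference of 4.06, or 16.7-fold. The raw spot mean shows how dim the control spots were: 55.0 and 71.6 over local backgrounds of 23 and 21, against 348 and 519 over 24 and 26 with embelin. The scanner software rated the spot as well above background in control replicate 1 but not in control replicate 2, and the probe was kept because both embelin arrays passed.

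The size of the STC1 difference therefore rested on how the control background was handled. On the array of control replicate 2 the STC1 signal of 4.93 was below 5.85, the lowest signal of any probe well above background there. With that array raised to this limit the log2 difference was 3.60, or 12.1-fold. With normexp background correction, run with an offset of 50 added to every spot, it was 2.26, or 4.78-fold. The control signals were then 6.30 and 6.79 and the embelin signals 8.63 and 8.98. The embelin arrays lay above the control arrays under each of these choices, while the size varied by more than the spread between replicates.

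STC2 was well above background on all 4 arrays at both of its probes. At the brighter probe the normalized log2 signal was 10.03 and 10.55 in control replicates 1 and 2 and 15.30 and 15.78 in embelin replicates 1 and 2. The group means were 10.29 ± 0.37 and 15.54 ± 0.35 (SD, n = 2 each), a log2 difference of 5.25, or 38.1-fold. The lowest difference between any embelin and any control array was 4.75 (26.8-fold), that of embelin replicate 1 and control replicate 2, and the highest 5.76 (54.2-fold). No spot of the array was marked as saturated, including this one, whose raw mean reached 67499 in embelin replicate 2. Normexp background correction left this value at 5.20.

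**Figure D1:**
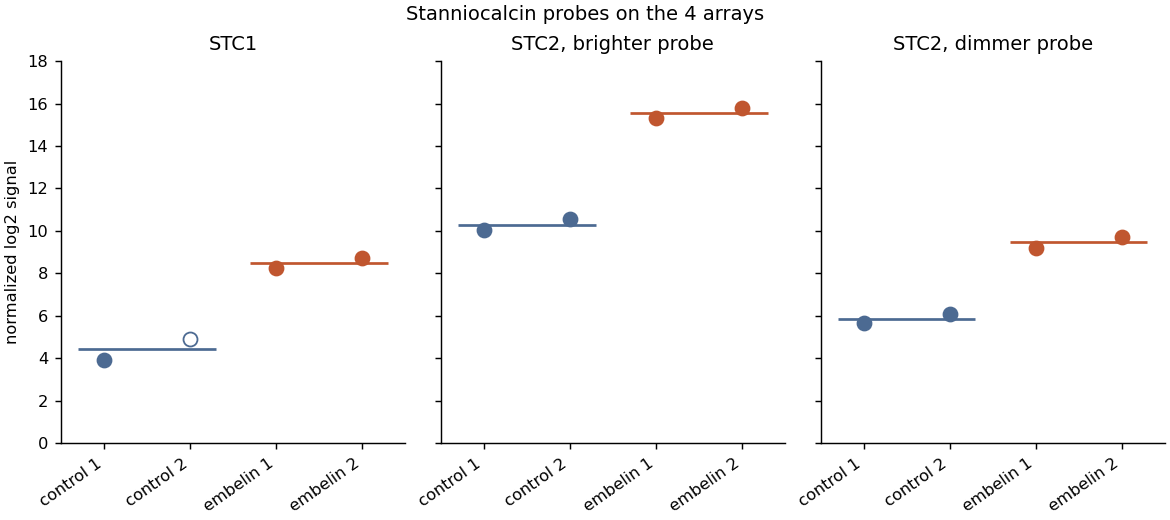
Normalized log2 signal (vertical axis) of the STC1 probe and both STC2 probes on each of the 4 arrays (horizontal axis); points are arrays, horizontal lines are group means, blue is control and orange embelin, and the open point was not well above background. All embelin points lie above all control points in each panel, and the log2 differences of the means are 4.06, 5.25 and 3.60.

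The dimmer STC2 probe gave a smaller difference. Its normalized log2 signal was 5.64 and 6.10 in the controls and 9.20 and 9.73 with embelin, with means of 5.87 ± 0.32 and 9.47 ± 0.37 (SD, n = 2 each). The groups did not overlap at this probe either. The log2 difference was 3.60, or 12.1-fold, which is 1.66 below that of the brighter probe, and with normexp background correction it was 2.66, or 6.31-fold. The direction was thus shared by both probes while the size was not.

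A gap of that size between probes of 1 gene was uncommon on these arrays. Over 5635 genes with more than 1 kept probe and a value on every array, the log2 differences of the brightest and the dimmest probe lay a median of 0.18 apart, and in 2.82% of them at least as far apart as in STC2. Of the other 18 genes whose brightest probe had a log2 difference of at least 3, the dimmest probe was the smaller in 12, with a median gap of 0.27, and 2 had a gap as large as that of STC2. Which of the 2 STC2 probes is nearer to the change in the message was not tested. For the same reason the genes cannot be ordered by fold: STC2 exceeded STC1 by 1.19 on the log2 scale at the brighter probe and lay 0.47 below it at the dimmer one. The latter rests on the dim STC1 control spot: STC1 and the dimmer STC2 probe both differed by 3.60 with that spot raised to its limit, and with normexp correction both STC2 probes exceeded STC1 (5.20 and 2.66 against 2.26).

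**Figure D2:**
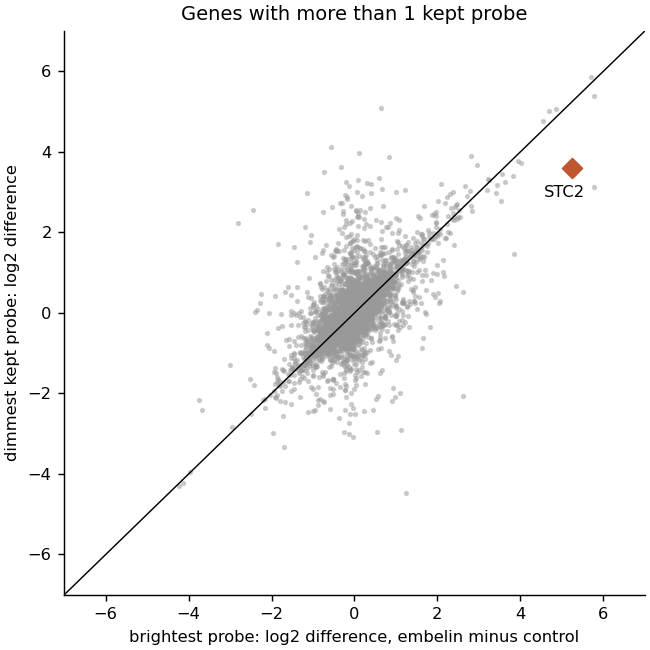
Log2 difference between embelin and control at the brightest kept probe (horizontal axis) and the dimmest kept probe (vertical axis) of each of 5635 genes with more than 1 kept probe; grey points are genes, the diamond is STC2 and the line marks equal values. STC2 lies below the line, at 5.25 and 3.60.

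Within each group the 3 stanniocalcin probes differed in the same direction. Control replicate 2 was above control replicate 1 by 1.00 for STC1 and by 0.53 and 0.46 for the brighter and dimmer STC2 probes, and embelin replicate 2 was above embelin replicate 1 by 0.47, 0.49 and 0.53 in the same order. Over the 17298 genes that had all 4 values the median of these replicate differences was -0.06 for the controls and 0.12 for embelin, and 3.07% of the genes had both at least as large as the smaller of the values of STC1 and the brighter STC2 probe. These gaps between replicates are small beside the differences between the groups.

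The genes whose pattern over the 4 arrays was most like that of each stanniocalcin were found by the distance between log2 profiles, each centred on its own mean, over 15293 genes well above background on all arrays. For STC1 they were PLIN2, a coat protein of lipid droplets, TSC22D3, the glucocorticoid-induced leucine zipper, CXCR4, a chemokine receptor, PFKFB4, an enzyme that sets the rate of glycolysis, and RHOB, a small GTPase, at distances of 0.57 to 0.79. PLIN2, the nearest, had log2 signals of 9.06 and 9.26 in the controls and 13.09 and 13.51 with embelin. For STC2 the nearest were ANGPTL4, a secreted inhibitor of lipoprotein lipase, NDRG1, HK2, a hexokinase, ATF3, a stress-induced transcription factor, and CEMIP, a hyaluronan-binding protein, at distances of 0.61 to 0.97. ANGPTL4 went from 12.65 and 12.47 to 17.84 and 17.85. The stanniocalcins were farther from each other (distance 1.23) than from these genes. STC1 itself was not well above background in control replicate 2, so its distances rest on that dim value and its order of genes is approximate. With 4 arrays in 2 groups this measure mostly reads the size of the difference between groups.

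Genes around the stanniocalcins were examined in 5 lists written by hand, by limma's moderated test of embelin against control with Benjamini-Hochberg adjustment over all 17649 genes tested. Called here means an adjusted p under 0.05, which held for 1.25% of all genes in the higher direction and 0.561% in the lower direction. The threshold of the study, at least 2-fold with an unadjusted p under 0.05, held for 4.27% in the higher and 3.99% in the lower direction with the p from limma, which is used for the list counts, and for 3.05% and 2.73% with the p from the methods' t-test. An unadjusted p under 0.05 alone held for 19.5% of all genes by limma and for 15.8% by the methods' t-test. The median log2 difference over all genes was -0.06. These calls need all 4 arrays: leaving out any single array, whether control replicate 1 or 2 or embelin replicate 1 or 2, brought the adjusted calls by limma to 0 in each list, while 2134 to 3075 genes had an unadjusted p under 0.05.

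In the IGF and PAPP-A axis, where stanniocalcins act as inhibitors, 3 of the 12 members measured were called, 2 higher and 1 lower, and the same numbers reached the threshold of the study. Over all genes 1.25% were called higher and 0.561% lower, and 4.27% and 3.99% reached that threshold. The median log2 difference of the 12 was -0.08. PAPPA, which encodes the protease itself, had log2 signals of 11.11 and 11.27 in the controls and 11.23 and 11.52 with embelin, a difference of 0.19 (standard error 0.19, adjusted p = 0.660), and the groups overlapped. IGFBP4, the binding protein that PAPP-A is best known to cleave, was at 12.53 and 13.17 against 12.45 and 13.10, a difference of -0.08 (standard error 0.35, adjusted p = 0.933). Neither the protease nor its main substrate differed beyond the spread of the arrays.

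The members called were other binding proteins and a signalling adaptor. IGFBP1, a binding protein known from liver and decidua, went from 10.48 and 10.13 to 14.14 and 14.48 and rose by 4.00 on the log2 scale (standard error 0.23, adjusted p = 0.0204). IGFBP3, the main carrier of IGF in serum, went from 12.81 and 12.91 to 15.01 and 15.65 and rose by 2.47 (standard error 0.27, adjusted p = 0.0462). IRS1, the adaptor that passes on the signal of the insulin and IGF receptors, went from 10.12 and 9.81 to 7.65 and 7.94 and fell by 2.17 (standard error 0.21, adjusted p = 0.0393). None of the 3 overlapped between groups, which also held for 51.8% of the genes that had all 4 values. The receptors IGF1R (-0.31) and INSR (-0.15) were not called. PAPPA2, PRG2, IGFBP5 and IGF1 were not well above background.

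Of the 19 genes of calcium entry and calcium stores that were measured, limma called 0 after adjustment and 0 reached the threshold of the study. The shares over all genes were 1.25% called higher and 0.561% lower, and 4.27% and 3.99% at that threshold. At such shares 0 of 19 does not set the list apart. An unadjusted p under 0.05 by limma was found for 1, against 19.5% of all genes. By the methods' t-test 0 were called after adjustment and 2, ATP2B1 (0.28) and CALR (-0.24), had an unadjusted p under 0.05, against 15.8% of all genes. The median log2 difference was 0.03. STIM1, the calcium sensor of the endoplasmic reticulum, was at 9.60 and 9.64 in the controls and 9.24 and 9.43 with embelin, a difference of -0.28 (standard error 0.17, adjusted p = 0.445). ORAI1, the channel that STIM1 opens, was at 14.76 and 14 against 14.52 and 14.40, a difference of 0.08 (standard error 0.31, adjusted p = 0.923), and -0.34 as the mean over its probes. The gene with an unadjusted p under 0.05 by limma was ORAI3, another channel subunit, with a difference of 0.74 (adjusted p = 0.161). ORAI3, ATP2B1, CALR, ATP2B4 and ATP2A3 were named after their values were seen. CASR, the calcium-sensing receptor, was not well above background.

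Of the 10 genes of phosphate transport and mineral hormones that were measured, limma called 0 and 0 reached the threshold of the study. The shares over all genes were 1.25% called higher and 0.561% lower, and 4.27% and 3.99% at that threshold. At such shares 0 of 10 does not set the list apart. An unadjusted p under 0.05 by limma was found for 3, against 19.5% of all genes. By the methods' t-test 0 were called after adjustment and 1, PTHLH, had an unadjusted p under 0.05, against 15.8%. The phosphate transporter SLC20A1 was at 14.80 and 14.75 in the controls and 15.15 and 15.55 with embelin, a difference of 0.58 (standard error 0.21, adjusted p = 0.253). VDR, the vitamin D receptor, differed by -0.02 (standard error 0.25, adjusted p = 0.975), a value that was 0.01 with quantile normalization. The other 2 unadjusted values belonged to SLC20A2 (0.49) and PTHLH (0.95), the latter encoding parathyroid hormone-related protein, both named after their values were seen. SLC34A2, the phosphate transporter of the lung epithelium, was not well above background.

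Of the list of hypoxia-inducible genes, which leaves out STC1 and STC2, all 26 were measured, 19 were called higher and 0 lower, against 1.25% and 0.561% of all genes. The median log2 difference was 2.32, and 24 reached the threshold of the study in the higher direction, against 4.27% of all genes. Of the 7 not called, LDHA (0.39) and PGK1 (0.73) were those that did not reach it. Both were named after their values were seen. The 6 largest among those called were HK2 (5.77), ANGPTL4 (5.29), NDRG1 (4.69), ANKRD37 (4.10), PFKFB4 (3.64) and VEGFA (3.63). Earlier results of these data showed several of these increases, so the list is not independent of them. The STC2 difference was 5.25 at its brighter and 3.60 at its dimmer probe, just under ANGPTL4 and just under VEGFA. That of STC1 has no firm place among these genes, since it was 4.06, 3.60 or 2.26 depending on how its dim control spots were handled.

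The transcripts of the hypoxia-inducible factors themselves differed less. HIF1A was at 12.54 and 12.58 in the controls and 11.92 and 11.97 with embelin, a difference of -0.61 (standard error 0.16, adjusted p = 0.155). EPAS1, which encodes HIF-2α, was at 14.13 and 14.08 against 14.79 and 14.88, a difference of 0.73 (standard error 0.16, adjusted p = 0.121). The arrays did not overlap between groups for either gene, which also held for 51.8% of the genes that had all 4 values, and neither was called. Factor activity is set largely at the level of the protein, which these arrays do not read.

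Of the 24 ATF4 target genes measured, 8 were called higher and 0 lower, and 10 reached the threshold of the study in the higher direction. Over all genes 1.25% were called higher and 0.561% lower, and 4.27% reached the threshold in the higher direction. This list, too, was chosen with earlier results of these data known. The median log2 difference was 0.68. The largest among those called were ATF3 (5.71), DDIT3 (4.24), PPP1R15A (3.27), SESN2 (3.01), GDF15 (2.08) and TRIB3 (1.97), of which DDIT3 encodes CHOP and PPP1R15A a subunit that restores translation after stress. Of the 24, 22 had a positive difference and 2 a negative one. Not called were 16, among them MTHFD2 (1.25) and CEBPG (1.19), which reached the threshold of the study. NUPR1 (0.91) and ASNS (0.72) were also among them. So were PHGDH (0.13) and PSAT1 (0.04), enzymes of serine synthesis, and the cystine transporter SLC7A11 (0.15). These uncalled members were named after their values were seen. ATF4 itself was at 16.37 and 16.41 in the controls and 16.96 and 16.87 with embelin, a difference of 0.52 (standard error 0.16, adjusted p = 0.199). STC2 at its brighter probe was near ATF3, and at its dimmer probe between DDIT3 and PPP1R15A.

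**Figure D3:**
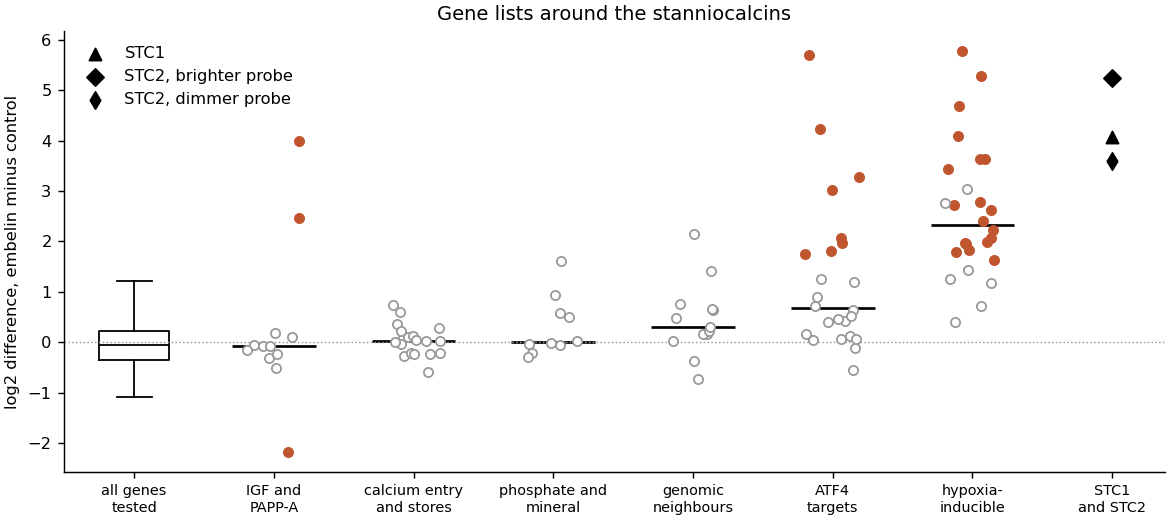
Log2 difference between embelin and control (vertical axis) of the members of each list, of the genomic neighbours and of STC1 and STC2; filled points were called after adjustment, open points were not, black lines are list medians, and the box gives the quartiles of all 17649 genes with whiskers at percentiles 5 and 95. The medians run from -0.08 in the IGF and PAPP-A list to 2.32 in the hypoxia-inducible list, and the stanniocalcin probes lie at 3.60 to 5.25.

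Further genes named in connection with stanniocalcins gave mixed values. HMOX1, the haem oxygenase that STC2 has been reported to bind, went from 13.73 and 14.25 to 16.25 and 15.90, a log2 difference of 2.08 (standard error 0.27, adjusted p = 0.0546), not called by a small margin. At 4.24-fold it reached the threshold of the study. UCP2, a mitochondrial carrier linked to STC1, was at 8.97 and 8.93 in the controls and 8.72 and 8.68 with embelin, a difference of -0.25 (standard error 0.16, adjusted p = 0.452).

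The neighbours of both genes on the chromosome were examined to see whether the difference extended along it. STC1 lies on chromosome 8 and STC2 on chromosome 5, and of the 20 protein-coding genes that make up the nearest 5 on each side, 13 were measured. Limma called 0 of them after adjustment, while 3 had an unadjusted p under 0.05, and by the methods' t-test 0 were called and 3 had an unadjusted p under 0.05. Over all genes the shares with an unadjusted p under 0.05 were 19.5% and 15.8%. Limma called 1.25% of all genes higher and 0.561% lower, so 0 of 13 does not set the neighbours apart. NEFM, a neurofilament subunit near STC1, had a difference of -0.36 (standard error 0.87, adjusted p = 0.868). ADAM28, ADAMDEC1 and ADAM7, which lie between STC1 and NEFM, were not well above background.

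The largest value among these neighbours was that of NEFL, another neurofilament gene, named after its value was seen. Its log2 signal was 4.78 and 4.30 in the controls, of which 1 of 2 arrays was well above background, and 6.47 and 6.91 with embelin, a difference of 2.15 (standard error 0.27, adjusted p = 0.0544), and 0.89 with normexp background correction. Against 4.27% of all genes in the higher direction, NEFL was the 1 neighbour that reached the threshold of the study. That count was 0 with normexp correction and with the filter on all 4 arrays, 2 as the mean over probes, with trend and robust and with the replicate block, and 3 without control replicate 1. For STC2 the adjacent genes NKX2-5, a cardiac homeobox gene, and BOD1, a gene of chromosome segregation, differed by 0.22 (standard error 0.24, adjusted p = 0.667) and 0.47 (standard error 0.19, adjusted p = 0.297). At the 13 neighbours measured, the values ran from -0.74 to 2.15, below those of STC1 and of both STC2 probes. Their median was 0.30, against -0.06 over all genes, with 11 positive and 2 negative. CREBRF, a neighbour of STC2 named after its value was seen, differed by 1.41 (standard error 0.56, adjusted p = 0.288 by limma). It was well above background on 1 of 2 control arrays, and its difference was 0.83 with normexp correction.

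**Figure D4:**
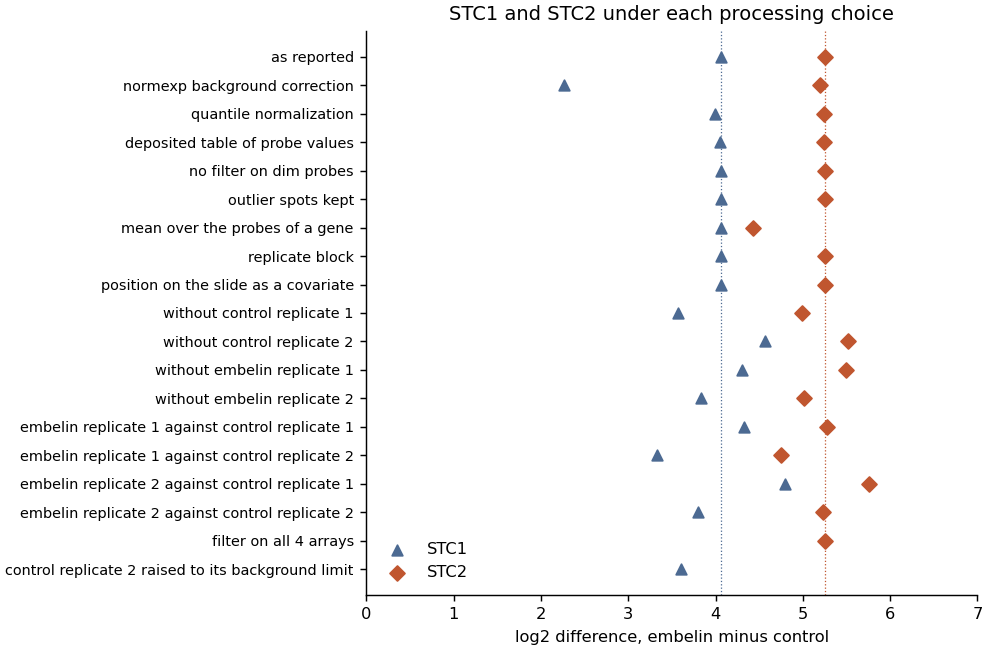
Log2 difference between embelin and control (horizontal axis) of STC1 (triangles) and STC2 at the probe that stands for the gene (diamonds) under each processing choice (vertical axis); dotted lines mark the values as reported, 4.06 and 5.25. STC1 moves to 2.26 with normexp background correction and STC2 to 4.42 as the mean over its probes, and neither changes direction. The replicate block and array position could not move the values, because the layout is balanced for both.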

How the data were processed

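The deposited files hold spot intensities of 4 single-colour arrays (custom human design) from the scanner software Feature Extraction 10.7.3.1, background subtracted and detrended within an array and not normalized between arrays, and a table of the same intensities averaged per probe. Here each array was scaled to a common 75th percentile, as the study's methods name, given a floor of 1 and log2 transformed. Outlier spots were left out, and probes well above background on both arrays of a group were kept (26146 of 50238), the brightest standing for a gene. Probes were named by accession through RefSeq (28595) or through another probe of the same name (2341). Embelin was compared with control with limma 3.58.1 in R 4.3.3 (17649 genes, Benjamini-Hochberg adjustment), tested on simulated data first. The methods' t-test, 2-fold and unadjusted p under 0.05, was run on the same values. Files were read with Python 3.11.15. The number of arrays limits the precision; with 2 arrays a group, no exact permutation p (two-sided) lies below 0.333. The genes and lists were chosen with earlier results of these data known. Genes named were STC1 and STC2, called members of a list (at most 6), genes listed by role, nearest measured neighbours and the 5 nearest profiles. One result under this rule is not reported here. Alternatives covered background, normalization, filter, outliers, probes, test, replicate number, array position and each array left out.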

Additional observations from a re-analysis of the deposited data

How the results depend on the processing

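The direction of STC1 and STC2 was the same under every alternative run. The replicate block and array position are no check of it, since they cannot change a difference in this balanced layout. The log2 difference of STC1 was 4.06 as reported, 2.26 with normexp background correction (offset 50, which lifts dim spots by construction), 3.56 to 4.56 with 1 array left out, and 3.33 and 4.80 at the extremes of the 4 array pairs, a comparison added after the values were seen, as was the raised control array (3.60). The filter that asked for all 4 arrays left STC1 out. That of STC2 was 5.25 as reported, 4.42 as the mean over its probes, 4.99 to 5.52 with 1 array left out, and 4.75 and 5.76 at the extremes of the pairs. Counts after adjustment depended more on the processing. Against 320 genes (221 higher and 99 lower), limma called 699 with normexp correction, 159 with the deposited table of probe values (126 higher and 33 lower), 177 with outlier spots kept, 764 with the filter on all 4 arrays and 1065 with trend and robust, and 0 with no filter on dim probes, by the methods' t-test, with the replicate block, with array position as a covariate and with any 1 array left out (0 to 0). At the threshold of the study the count was 1458 with the p from limma, 999 (527 higher and 472 lower) with the methods' t-test, and 891 with normexp correction. The hypoxia-inducible (19), ATF4 (8) and IGF (3) lists likewise had 0 called under each of the settings that gave 0 genes. The ATF4 list had 13 called with trend and robust, and the IGF list 1, IGFBP1, with the deposited table and with outlier spots kept. PTHLH made the phosphate list 1 with the filter on all 4 arrays and with trend and robust. The replicate numbers do not pair the samples by label. Deviations of equal numbers correlated at 0.18 over genes and those of unequal numbers at -0.18. With 2 arrays a group these are opposite by construction, so they do not decide whether samples were paired. The replicate block, with 1 residual degree of freedom, called 0 genes. It gave 4.06 and 5.25 for STC1 and STC2 by construction, because each group held 1 sample of each number. The same held for array position, which averaged the same in both groups. The cause of the changes in counts was not tested. The dim control spots limit STC1, of which 1 of 2 control arrays was well above background.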
